A study of Mus musculus with 9 samples.

Results

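Peaks of open chromatin at the start sites of long noncoding RNA (lncRNA) genes were compared between mouse mesenchymal progenitor cells (MPCs) with and without ATRX. Peaks of all libraries on chromosomes 1 to 19 that overlapped or touched were merged, and merged regions seen in 2 or more of the 3 libraries of the same line were kept as consensus regions. A consensus region was taken as a lncRNA promoter when it lay within 1 kb of a start site of a lincRNA or antisense gene of GENCODE M21 and over 3 kb from every protein-coding start site. This left 1612 lncRNA promoters among 95142 consensus regions, or 1.69%. No value of accessibility entered the rule beyond the presence of peaks.

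The assay was ATAC-seq, in which a transposase cuts accessible chromatin, in C3H/10T1/2 cells, an established mouse line with properties of MPCs. There were 3 wild-type (WT) libraries and 3 libraries of each of 2 *Atrx* knockout (KO) clones, B10 and G7. Each clone grew from 1 edited cell, WT cells had received the Cas9 vector with no guide, and all were kept in growth medium. A difference between B10 or G7 and WT therefore cannot be told apart from a difference between single-cell clones, and nothing in the labels says whether replicates came from separate cultures, so p-values measure the spread between these libraries. A peak at the *Atrx* start site was present in all 9 libraries, with fold enrichments of 14.3 to 17.7, which is no check of the edit itself. Of 10 mesenchymal marker genes, among them *Prrx1*, *Twist1* and *Col1a1*, 10 had a peak within 1 kb of a start site in every library. Of 5 leukocyte genes 0 to 2 had one in a given library, of 5 epithelial genes 1 to 2 and of 5 endothelial genes 2 to 3. Libraries held 74643 to 86650 peaks on these chromosomes, the most in B10 replicates 1 and 2. The lists hold no reads, so sequencing depth is unknown and a missing peak means only that none was called.

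A lncRNA is transcribed by RNA polymerase II like a messenger RNA but codes for no known protein. Many lncRNA promoters hold fewer CpG dinucleotides than protein-coding promoters and are open in a narrower set of tissues. Some lncRNAs build nuclear bodies, some silence imprinted clusters from which they are read, and others are hosts from which microRNAs or small nucleolar RNAs are cut. ATRX is a chromatin remodeller that, with DAXX, places the histone variant H3.3 in heterochromatin. An open promoter allows transcription but is not a measure of it.

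The first 200 bases shown span 150 bases before and 50 bases from the start site on the strand of the gene, in build mm10, with capitals for the transcribed bases. *Kcnq1ot1* (chr7:143296500-143296699, minus strand), *Malat1* (chr19:5802623-5802822, minus strand) and *Gm5165* (chr17:17234722-17234921, plus strand) are shown as lncRNA promoters with a peak in all 9 libraries, and *Hoxd3os1* (chr2:74715947-74716146, minus strand) as one that differed between the clones.
Kcnq1ot1: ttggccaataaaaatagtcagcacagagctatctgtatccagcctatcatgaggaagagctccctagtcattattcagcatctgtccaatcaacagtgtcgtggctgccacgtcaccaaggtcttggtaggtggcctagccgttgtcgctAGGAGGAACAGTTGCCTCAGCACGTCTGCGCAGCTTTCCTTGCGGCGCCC
Malat1: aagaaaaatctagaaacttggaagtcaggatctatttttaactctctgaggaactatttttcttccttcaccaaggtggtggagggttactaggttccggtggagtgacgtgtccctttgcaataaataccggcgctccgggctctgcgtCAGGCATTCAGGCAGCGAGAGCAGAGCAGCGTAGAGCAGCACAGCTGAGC
Gm5165: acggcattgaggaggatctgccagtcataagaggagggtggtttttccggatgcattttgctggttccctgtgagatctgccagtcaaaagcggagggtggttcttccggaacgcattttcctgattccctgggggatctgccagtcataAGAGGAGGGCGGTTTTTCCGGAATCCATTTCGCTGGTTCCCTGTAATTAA
Hoxd3os1: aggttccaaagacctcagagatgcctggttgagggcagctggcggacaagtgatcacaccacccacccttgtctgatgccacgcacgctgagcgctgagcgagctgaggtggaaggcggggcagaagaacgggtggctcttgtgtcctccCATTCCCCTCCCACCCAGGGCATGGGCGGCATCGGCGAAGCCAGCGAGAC
*2810429I04Rik* (chr13:3478080-3478279, plus strand) is shown for the promoters with a peak in WT libraries only. *Gm29674* (chr10:107205525-107205724, minus strand) and *Gm38293* (chr1:180768607-180768806, minus strand) are shown for those with a peak in KO libraries only. In each of these the peak covered the annotated start site.
2810429I04Rik: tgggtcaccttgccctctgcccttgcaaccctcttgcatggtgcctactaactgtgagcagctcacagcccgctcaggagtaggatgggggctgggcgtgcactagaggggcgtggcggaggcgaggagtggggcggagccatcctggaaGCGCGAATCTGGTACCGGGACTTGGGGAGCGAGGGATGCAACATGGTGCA
Gm29674: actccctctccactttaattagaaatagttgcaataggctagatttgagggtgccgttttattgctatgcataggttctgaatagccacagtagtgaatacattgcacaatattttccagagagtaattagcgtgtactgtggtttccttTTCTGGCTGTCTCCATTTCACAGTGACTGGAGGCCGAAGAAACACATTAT
Gm38293: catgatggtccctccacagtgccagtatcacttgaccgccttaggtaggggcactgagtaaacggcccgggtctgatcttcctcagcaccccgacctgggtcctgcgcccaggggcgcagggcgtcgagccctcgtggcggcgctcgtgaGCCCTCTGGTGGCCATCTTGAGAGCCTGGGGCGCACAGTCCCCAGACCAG

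The second set shows 200 bases around the peak summit, on the plus strand, with capitals for the letters TGACTCA or TGAGTCA, which AP-1 (the FOS and JUN dimer) is known to bind. *C030037F17Rik* (chr8:14746338-14746537) and *Gm10637* (chr8:87199942-87200141) had no peak in either KO clone, *Gm49736* (chr16:31412451-31412650) was lower in B10 than in G7, and *Gm47116* (chr12:99063976-99064175) had a peak in KO libraries only. The first 3 hold 1 match each and *Gm47116* holds 3.
C030037F17Rik: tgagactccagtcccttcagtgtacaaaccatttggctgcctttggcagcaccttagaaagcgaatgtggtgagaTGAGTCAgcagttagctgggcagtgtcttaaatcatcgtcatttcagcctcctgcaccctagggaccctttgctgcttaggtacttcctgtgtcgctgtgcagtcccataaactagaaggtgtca
Gm10637: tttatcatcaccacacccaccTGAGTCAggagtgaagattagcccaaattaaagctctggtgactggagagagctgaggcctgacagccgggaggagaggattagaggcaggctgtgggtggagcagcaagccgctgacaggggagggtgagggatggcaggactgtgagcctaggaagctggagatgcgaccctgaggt
Gm49736: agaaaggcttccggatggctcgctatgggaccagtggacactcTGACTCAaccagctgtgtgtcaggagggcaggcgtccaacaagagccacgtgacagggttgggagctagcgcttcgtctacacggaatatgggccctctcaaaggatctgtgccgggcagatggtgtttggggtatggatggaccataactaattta
Gm47116: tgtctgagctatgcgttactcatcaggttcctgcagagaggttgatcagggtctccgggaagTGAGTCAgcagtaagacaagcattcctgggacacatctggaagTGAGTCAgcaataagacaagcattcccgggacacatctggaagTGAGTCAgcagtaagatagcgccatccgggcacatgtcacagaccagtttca

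The nearest start site belonged to a lincRNA gene at 1217 lncRNA promoters and to an antisense gene at 395. They lay at 1459 different genes, and 47 regions had start sites of 2 or more lncRNA genes within reach. The region covered the start site itself at 857 of 1612 (53.2%), the summit lay within 100 bp of it at 387 (24%), and the median distance from summit to start site was 374 bp. The median distance to a protein-coding start site was 34.8 kb. The summit fell inside a protein-coding gene at 313 regions, in an exon of one at 25. Read from the genes, 1502 of 8122 lincRNA and antisense genes (18.5%) had such a promoter region, 1104 (13.6%) had regions only within 3 kb of a protein-coding start site, and 5516 (67.9%) had none within 1 kb. Of 2913 antisense genes 764 were set aside for a protein-coding start site nearby, and of 5209 lincRNA genes 340.

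The strength of a peak is given here as a percentile rank, its place by −log10 q among the peaks of its own library (100 is the strongest). The 135 regions at 800 to 1000 bp from a lncRNA start site had a median rank of 42.9, and the 130 regions over 1000 and up to 1200 bp away, which were left out, one of 39.2. At the other limit, 44 regions with a protein-coding start site over 3000 and up to 4000 bp away had a median rank of 49.4, and the 61 left out at 2000 to 3000 bp one of 59.8.

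In base composition lncRNA promoters lay between protein-coding promoters (15866 regions within 1 kb of a protein-coding start site) and far intergenic regions (42368 regions over 10 kb from any start site). Median GC content in 300 bp around the summit was 50% at lncRNA promoters, 60.3% at protein-coding promoters and 46.7% at far intergenic regions. CpG-rich windows, with GC of at least 50% and an observed-to-expected CpG ratio of at least 0.6, made up 138 of 1612 lncRNA promoters (8.56%), against 55% of protein-coding promoters and 0.694% of far intergenic regions. The letters of AP-1 stood within 100 bp of the summit (both strands) at 18.4% of lncRNA promoters, 7.68% of protein-coding promoters, 21.6% of far intergenic regions and 18.5% of all consensus regions. TATAAA on either strand of the same window was found at 5.96%, 3.81%, 9.24% and 7.86%. Repeats covered at least 50% of the window at 61 lncRNA promoters (3.78%), where reads may map to more than one place.

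CpG content divided the lncRNA promoters themselves. Of the 138 CpG-rich ones, 117 (84.8%) had a peak in all 9 libraries, with a median rank of 86.2. Of the other 1474, 792 (53.7%) did, with a median rank of 45.3. Regions over the start site had a peak in all 9 libraries in 568 of 857 cases (66.3%), and those beside it in 341 of 755 (45.2%). The same was true of 57.1% of lincRNA promoters and 54.2% of antisense promoters.

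The share of lncRNA promoters with a peak in a library was 81.2, 82.4 and 81.5% in WT, 79.6, 83.4 and 80.3% in B10 and 79.2, 79.9 and 78.6% in G7. All G7 libraries lay below all WT libraries, while B10 and WT overlapped. G7 differed from WT by -2.48 percentage points (79.2 ± 0.654 against 81.7 ± 0.657, SD, n = 3, exact two-sided permutation p = 0.1, adjusted p = 0.2) and B10 by -0.6 points (81.1 ± 2, exact permutation p = 0.7). With 3 libraries against 3, 0.1 is the smallest p possible, so no such test can pass 0.05. Pairing libraries by replicate number gave an exact p of 0.25 for G7, again the smallest possible. When the 74643 strongest peaks of each library were used, the difference was -3.18 points in B10 and -1.72 points in G7, each with an exact permutation p of 0.1. With all peaks, the share over all consensus regions was 74.7, 76.2 and 74.9% in WT, 78.1, 82.7 and 78.5% in B10 and 74.3, 75.7 and 74.1% in G7. There G7 and WT overlapped and B10 lay above both.

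Protein-coding promoters had a peak more often than lncRNA promoters in each of the 9 libraries, by 7.71 to 12 points (mean 9.79, exact sign-flip permutation p = 0.00391, the smallest possible). Far intergenic regions had one less often in each library, with differences from lncRNA promoters of -11.8 to -2.47 points (mean -8.35, exact permutation p = 0.00391). All 9 libraries were scored on the same regions and come from 3 lines. These 2 p-values therefore say only that the sign was the same in each library. The gap between lncRNA and protein-coding promoters was wider in G7 than in WT by 2.57 points, with no overlap between the libraries (exact permutation p = 0.1, adjusted p = 0.2), and that in B10 differed from WT by -0.0744 points (exact permutation p = 1). Far intergenic regions had a peak in 69.6 to 70.9% of cases in WT, 75.7 to 80.9% in B10 and 68.4 to 70.8% in G7. There every B10 library exceeded every WT library, whereas B10 and WT overlapped at lncRNA promoters, and the difference between these classes was not tested.

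**Figure D1:**
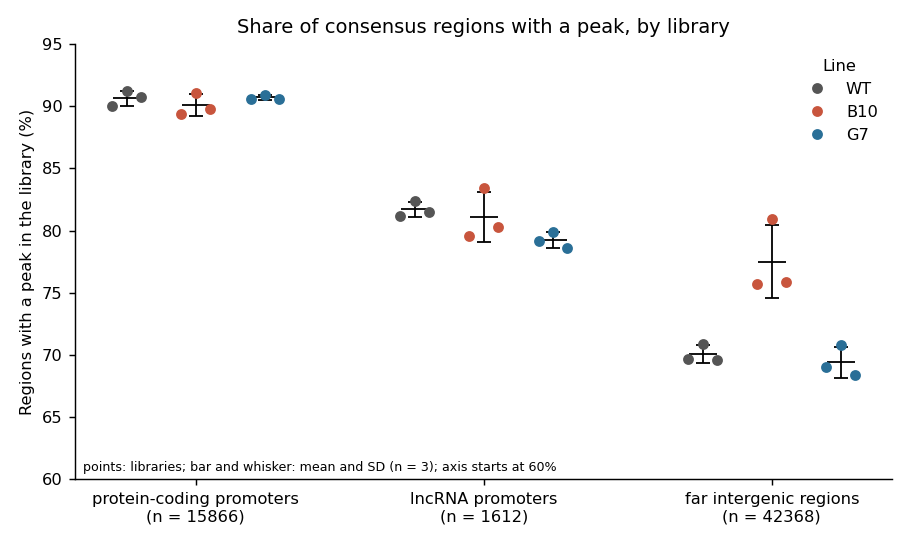
Share of regions with a peak (%, axis from 60) in each of 9 libraries for protein-coding promoters, lncRNA promoters and far intergenic regions, with points for libraries and bars for mean and SD (n = 3). The 3 G7 points at lncRNA promoters (78.6 to 79.9%) lie below the 3 WT points (81.2 to 82.4%), and the B10 points at far intergenic regions (75.7 to 80.9%) lie above those of both other lines.

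Among lncRNA promoters with a peak in all 9 libraries, the median rank was 71.1 to 73 in WT, 71.9 to 73.9 in B10 and 70.5 to 71 in G7. G7 was lower than WT by 1.42 rank points with no overlap (exact permutation p = 0.1, adjusted p = 0.2), and B10 was higher by 1 point with overlap (exact permutation p = 0.3). A rank depends on the length of the list it is taken in, and lists held 76479 to 79534 peaks in WT and 74643 to 77706 in G7. Over all regions with a peak in all 9 libraries the median rank was 69 to 70.1 in WT and 68.5 to 69.5 in G7, and the part of list length in the difference was not tested. Protein-coding promoters ranked 14.5 to 18.2 points above lncRNA promoters in the 9 libraries (exact permutation p = 0.00391). That p-value, too, says only that the sign was the same in each library.

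In both KO clones 80 lncRNA promoters lost a peak and 40 gained one, a balance that turned when some WT libraries were left out. Gained in a clone means a peak in at least 2 of its 3 libraries and in 0 of 3 WT libraries, and lost means the reverse. In B10 107 lncRNA promoters were gained (6.64%, against 10.4% of all consensus regions) and 133 lost (8.25%, against 7.59%). In G7 75 were gained (4.65%, against 5.61%) and 118 lost (7.32%, against 7.43%). In both clones 40 were gained (2.48%, against 2.93%) and 80 lost (4.96%, against 4.37%). The share gained in B10 was below that of all regions, and the others differed from it by less than 1 percentage point. Both clones were called against the same WT libraries. At 17 of the gained ones all 6 KO libraries held a peak (1.05%, against 1.07% of all regions), and at 38 of the lost ones all 3 WT libraries did (2.36%, against 1.63%). Most called regions did not cover a lncRNA start site. Of regions over it 15 were gained in both clones (1.75%) and 29 lost (3.38%). Beside it 25 were gained (3.31%) and 51 lost (6.75%), and regions there were also weaker (median rank 38.8 against 58.1).

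The counts, out of 1612 lncRNA promoters, depended on single libraries. Leaving out WT replicate 1 gave 72 gains and 63 losses shared by the clones, against 5.7% and 3.28% of all regions. Leaving out WT replicate 2 gave 52 gains and 45 losses, against 3.75% and 2.13% of all regions. With WT replicate 3 left out there were 47 gains and 48 losses, against 3.62% and 2.2% of all regions. With a WT library fewer the rule for a gain is easier to meet and that for a loss harder, and gained ones then outnumbered lost ones in the first 2 cases. Without G7 replicate 1, 25 were gained and 84 lost, against 1.91% and 4.72% of all regions. Compared within replicate numbers (a replicate block), 70 were gained and 107 lost, against 5.08% and 6.25% of all regions.

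Of the 17 promoters gained in all 6 KO libraries, 8 are described, those whose lowest rank was highest, and no WT library held a peak at any of them. At *Rncr4* (chr6:30173448-30174692), a retinal lncRNA, the gained peak lay 555 bp from the start site and ranked 72.5, 73.6 and 75.8 in B10 and 59.5, 73.8 and 70.1 in G7. The ranges of the clones overlapped. The region at *4930452G13Rik* and *Gm49042* (chr14:79702166-79704915) covered the start site and ranked 48.8, 42.6 and 52 in B10 and 93.7, 87.2 and 87.9 in G7. *Gm15816* (chr8:23149337-23150221) lay antisense within *Ank1*, the gene of an ankyrin of the red cell membrane, and 3.05 kb from the *Nkx6-3* start site. It ranked 30.1, 49.8 and 41.8 in B10 and 77.4, 76.2 and 73.5 in G7. All G7 values exceeded all B10 values at these 2 regions.

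At *Gm29674* (chr10:107205065-107205868) the order was the other way, with 81.6, 76.6 and 76.6 in B10 and 56.8, 36.1 and 49.2 in G7. *Gm38293* (chr1:180768142-180769030) ranked 69.8, 60.9 and 69.1 in B10 and 47.5, 31.4 and 26.9 in G7. *Pvt1*, a lncRNA beside *Myc* and linked to its protein level, gained a peak at chr15:62216534-62217224, 999 bp from an internal start site and 229 kb from the nearest protein-coding start site, that of *Myc*. It ranked 72.8, 76.1 and 66.8 in B10 and 29, 35.1 and 35.2 in G7. B10 stood above G7 without overlap at all 3 genes. *4930529N20Rik* (chr13:35164725-35167224) ranked 62.1, 43 and 45 in B10 and 50.4, 35.6 and 38.8 in G7, and *Gm47116* (chr12:99063831-99064511) 27.7, 47.4 and 42.4 in B10 and 26.1, 61.2 and 49.5 in G7, where the clones overlapped.

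The 8 lost promoters chosen in the same way had middle to high ranks in all 3 WT libraries and no peak in any of the 6 KO libraries. *Gm26803* (chr13:83730525-83731473), whose nearest protein-coding start site is that of the muscle and heart regulator *Mef2c* at 77.6 kb, ranked 70.3, 67.7 and 64.3, though its peak lay 943 bp from the lncRNA start site. *2810429I04Rik* (chr13:3477710-3478654), 59.4 kb from *Gdi2*, ranked 68.8, 63 and 66.4 and covered the start site. *9530059O14Rik* (chr9:122571789-122573122) ranked 69.1, 50 and 48.5, with a GC content of 76.3% in the summit window. *Gm10637* (chr8:87199319-87200351), whose nearest protein-coding start site was that of the synaptic protein gene *Cbln1*, 271 kb away, ranked 49, 60 and 65.6.

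*Gm31804* ranked 58.5, 53.6 and 55.5 and *Gm14397* (chr2:165159020-165159532), antisense within the cadherin gene *Cdh22*, 48.2, 53.4 and 52.2. *C030037F17Rik* (chr8:14746192-14746821), antisense within *Dlgap2* and 3.44 kb from a start site of that gene, ranked 45.3, 51.4 and 59.2. *Gm40513* (chr9:41890046-41891226) ranked 72, 46.4 and 45.6, with replicate 1 far above the others. Over all 80 lost lncRNA promoters the mean rank in WT libraries ran from 1.51 to 67.4 with a median of 20.6, and 9 exceeded 50. Over the 40 gained ones the mean rank in KO libraries ran from 3.97 to 70.9 with a median of 31.7, and 6 exceeded 50.

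**Figure D2:**
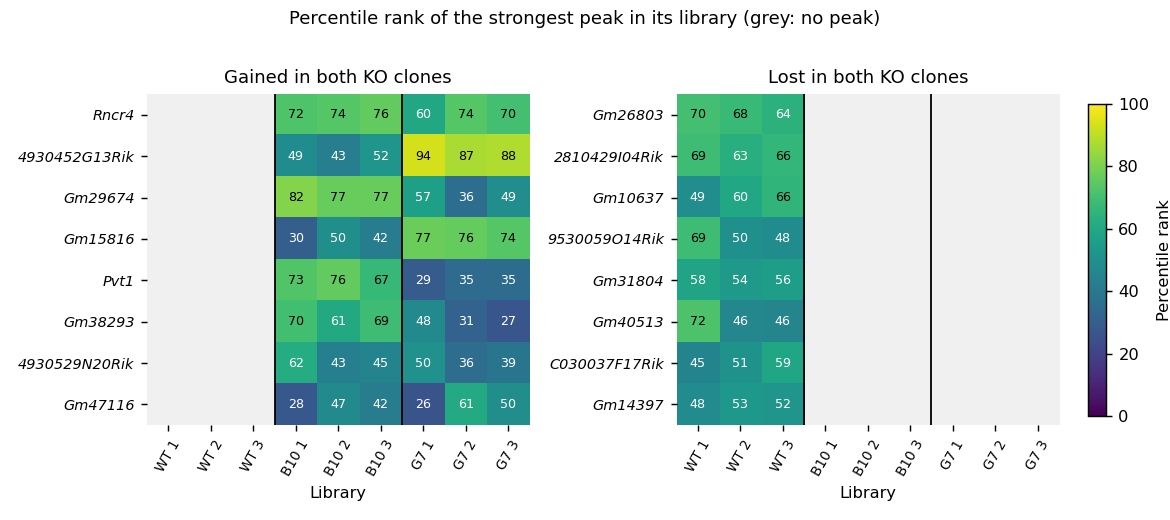
Percentile rank of the strongest peak (colour and number, 0 to 100) in each library (columns) at 8 lncRNA promoters gained and 8 lost in both KO clones (rows), grey where no peak was called. *4930452G13Rik* and *Gm15816* are stronger in G7, *Gm29674*, *Pvt1* and *Gm38293* in B10, and the lost ones rank 45.3 to 72 in WT.

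Most calls were at regions of low rank. Of 251 lncRNA promoters with a mean rank up to 20, 39 were lost in both clones (15.5%, against 11.2% of all regions of that strength) and 9 gained (3.59% against 4.89%). Between ranks 20 and 40, 25 of 401 were lost (6.23% against 5.6%) and 18 gained (4.49% against 4.86%), the most gained of any class. Between ranks 40 and 60, 14 of 338 were lost (4.14% against 2.42%) and 10 gained (2.96% against 2.5%). Of 294 with a mean rank over 80, 0 were gained and 0 lost, and all of them had a peak in all 9 libraries, where 99.7% of all regions did. The mean rank comes from the same peaks, so these shares are a description only.

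**Figure D3:**
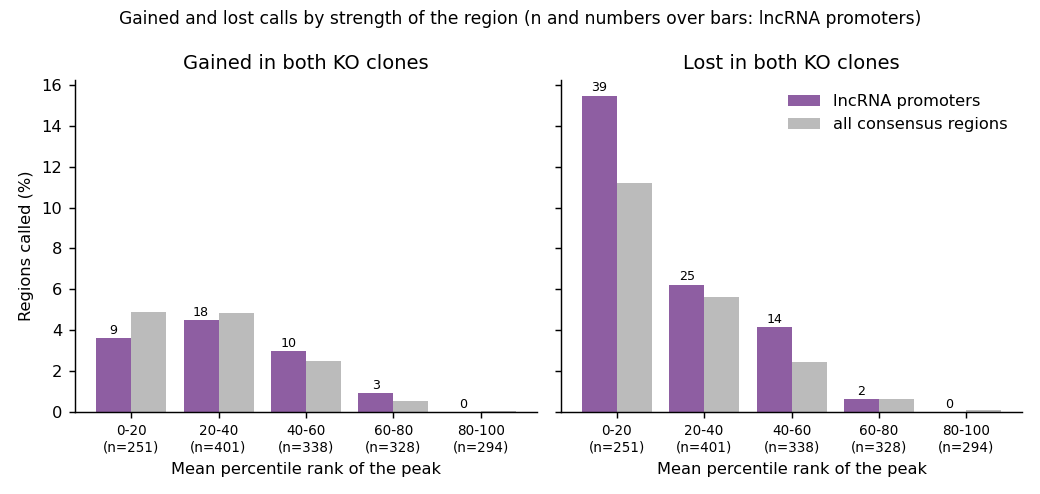
Share of lncRNA promoters (purple) and of all consensus regions (grey) gained or lost in both KO clones (%), by the mean percentile rank of the region, with the number of lncRNA promoters called over the bars. Lost calls fall from 39 in the weakest class to 0 in the strongest, and gained calls are 9, 18, 10, 3 and 0 from the weakest class to the strongest.

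Peak strength was compared at the 909 lncRNA promoters (56.4%) with a peak in all 9 libraries, by limma on the log2 fold enrichment (peak signal over background, as given by the peak caller), centred on each library's median, over the 46449 regions with a peak in all libraries. In B10 25 were higher than in WT (2.75%, against 3.47% of all regions) and 27 lower (2.97%, against 3.08%) at an adjusted p under 0.05. In G7 9 were higher (0.99%, against 1.77%) and 16 lower (1.76%, against 1.38%). The same direction in both clones was called for 8 higher (0.88%, against 1.16%) and 6 lower (0.66%, against 0.618%), and 0 were called in opposite directions (2 at an unadjusted p under 0.05). The median log2 difference was 0.017 in B10 and 0.019 in G7 at lncRNA promoters, and 0.0312 and 0.025 over all regions. Most lncRNA promoters passed the test in neither clone.

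Libraries with the same replicate number varied together in every line, and a replicate block raised the counts. With it 61 lncRNA promoters were higher (6.71%, against 7.98% of all regions) and 72 lower (7.92%, against 7.06%) in B10, and 23 higher (2.53%, against 4.35%) and 35 lower (3.85%, against 3.58%) in G7. In both clones 14 were then higher (1.54%, against 2.94%) and 17 lower (1.87%, against 1.8%), so that the balance between the directions turned. Fits without 1 library moved the counts too. Shares over all regions are not given for these fits, so the counts do not tell lncRNA promoters apart from other regions. The number higher in B10 was 41 without WT replicate 1, 14 without WT replicate 2, 13 without WT replicate 3, 13 without B10 replicate 1, 9 without B10 replicate 2 and 13 without B10 replicate 3. The number lower in B10 was 14 without WT replicate 2 and 14 without WT replicate 3. The number higher in G7 was 17 without WT replicate 1, 5 without WT replicate 2, 5 without WT replicate 3 and 4 without G7 replicate 2. The number lower in G7 was 9 without WT replicate 2, 9 without WT replicate 3, 10 without G7 replicate 2 and 9 without G7 replicate 3.

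Of the 8 lncRNA promoters higher in both clones, *Gm20711*, *4930461G14Rik* and *Gm32569* were called in both clones in every fit that left out 1 library. At *Gm20711* (chr1:168002463-168003611), an antisense gene, the fold enrichment was 6.51, 4.07 and 5.73 in WT, 13, 16.2 and 14.9 in B10 and 11.2, 13.2 and 13.2 in G7. Every KO library exceeded every WT library. The 8 promoters were picked on these same fold enrichments, so such a separation adds no support. The log2 difference was 1.47 ± 0.18 in B10 (SE, adjusted p = 0.00316) and 1.32 ± 0.18 in G7 (adjusted p = 0.00817).

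*4930461G14Rik* (chr9:58454819-58455338) had fold enrichments of 3.38, 3.3 and 3.75 in WT, 6.08, 7.12 and 6.58 in B10 and 9.76, 8 and 9.08 in G7, in 3 separate ranges. The log2 difference was 0.94 ± 0.096 in B10 (adjusted p = 0.00199) and 1.46 ± 0.096 in G7 (adjusted p = 0.00153). Repeats cover 63% of its summit window, so its reads may come from more than one place. At *Gm32569* (chr1:164898698-164899380), an antisense gene 36.1 kb from the chemokine gene *Xcl1*, values were 6.52, 7.78 and 7.96 in WT, 11, 12.7 and 10.8 in B10 and 12.2, 13.1 and 13.5 in G7. It rose by 0.65 ± 0.098 in B10 (adjusted p = 0.00786) and 0.90 ± 0.098 in G7 (adjusted p = 0.00494) on the log2 scale.

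The other 5 were also higher in every KO library than in every WT library, but lost a call when some libraries were left out. With all libraries of G7 and WT but none of B10 in the limma fit, all 5 lost their G7 call (adjusted p from 0.052 to 0.0781). *Prox2os* also lost its B10 call in a fit of B10 and WT alone (adjusted p = 0.0594). *Gm32250* (chr1:194995174-194995593), 56.2 kb from *Cd34*, a stem cell surface marker, had values of 5.4, 6.98 and 4.46 in WT, 9.78, 11.6 and 8.65 in B10 and 12, 9.69 and 9.34 in G7. Its B10 call (0.86 ± 0.17, adjusted p = 0.0215) was lost without WT replicate 3 or B10 replicate 1 or 2 (adjusted p up to 0.0755). Its G7 call (0.99 ± 0.17, adjusted p = 0.0205) was lost without WT replicate 3 or any 1 of the G7 replicates (up to 0.0623). *Prox2os* (chr12:85084608-85085546) had values of 4.75 to 5.88 in WT, 7.02 to 8.09 in B10 and 7.25 to 8.97 in G7. Its B10 call (0.54 ± 0.12, adjusted p = 0.0341) was lost without WT replicate 2 or 3, any 1 of the B10 replicates or G7 replicate 2 (up to 0.115), and its G7 call (0.73 ± 0.12, adjusted p = 0.0192) without WT replicate 2 or 3 or G7 replicate 1 or 2 (up to 0.0706).

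*Gm45650* (chr8:60717645-60718314) had values of 8.6 to 9.11 in WT, 13.3 to 15.8 in B10 and 10.4 to 12.7 in G7. Its B10 difference of 0.78 ± 0.098 (adjusted p = 0.00379) held in every such fit, and its G7 difference of 0.49 ± 0.098 (adjusted p = 0.0343) was lost without WT replicate 2 or 3, B10 replicate 2 or 3 or G7 replicate 1 or 2 (up to 0.114). *Gm48623* (chr13:54302503-54304457), 66.9 kb from the complexin gene *Cplx2*, had values of 8.23 to 8.59 in WT, 11.4 to 12.3 in B10 and 10.2 to 11.8 in G7. It differed by 0.52 ± 0.088 in B10 (adjusted p = 0.0125) and 0.45 ± 0.088 in G7 (adjusted p = 0.0324), the latter lost without any 1 of the WT replicates, B10 replicate 3 or G7 replicate 2 or 3 (up to 0.111). *AC132148.1* (chr19:10289678-10290939), antisense within *Dagla*, an enzyme of endocannabinoid synthesis, had values of 5.39 to 6.13 in WT, 7.29 to 8.13 in B10 and 6.78 to 7.5 in G7. Its B10 call (0.46 ± 0.081, adjusted p = 0.0143) was lost without WT replicate 3 or B10 replicate 2 or 3 (up to 0.0568), and its G7 call (0.43 ± 0.081, adjusted p = 0.03) without WT replicate 2 or 3, B10 replicate 2 or G7 replicate 2 or 3 (up to 0.108).

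Of the 6 lncRNA promoters lower in both clones, *4930573C15Rik* was called in both clones in every fit that left out 1 library. At this gene (chr5:146705589-146706303, 52.1 kb from *Usp12*, which codes for a deubiquitinase) the fold enrichment was 15.5, 15.3 and 13.2 in WT, 8.1, 9.84 and 8.1 in B10 and 7.26, 7.53 and 8.83 in G7. It fell by 0.74 ± 0.11 in B10 (adjusted p = 0.0078) and 0.80 ± 0.11 in G7 (adjusted p = 0.00921) on the log2 scale. *Gm12148* (chr11:43385046-43385967), over the start site and 37 kb from the securin gene *Pttg1*, went from 14.1, 15.7 and 14.6 in WT to 6.23, 9.22 and 11 in B10 and 4.07, 5.12 and 4.73 in G7. Its G7 difference of -1.58 ± 0.18 (adjusted p = 0.00505) held in every such fit. Its B10 difference of -0.77 ± 0.18 (adjusted p = 0.0426) was lost without any 1 of the WT replicates, B10 replicate 1 or 2 or G7 replicate 2 or 3 (adjusted p up to 0.123). A limma fit of B10 and WT alone lost it too (adjusted p = 0.0765).

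*Rab11fip4os1* (chr11:79622946-79623533), antisense within *Rab11fip4*, an effector of the endosomal GTPase RAB11, went from 16.4, 15.1 and 15.2 in WT to 7.07, 8.67 and 7.23 in B10 and 10, 10.2 and 9.81 in G7. The difference was -1.01 ± 0.088 in B10 (adjusted p = 0.00134) and -0.54 ± 0.088 in G7 (adjusted p = 0.0169), the latter lost without WT replicate 3 or G7 replicate 2 or 3 (up to 0.0678). *Gm16267* (chr12:33110816-33111533) had values of 12.5 to 13.3 in WT, 5.08 to 6.9 in B10 and 7.91 to 8.68 in G7. It differed by -1.15 ± 0.11 in B10 (adjusted p = 0.00148), which held in every such fit, and by -0.53 ± 0.11 in G7 (adjusted p = 0.0373). The G7 call was lost without any 1 of the WT replicates, B10 replicate 3 or any 1 of the G7 replicates (up to 0.121). *Gm14161* (chr2:152553942-152554532), near a cluster of defensin genes, went from 16.4 to 17.7 in WT to 7.47 to 11.3 in B10 (-0.80 ± 0.14, adjusted p = 0.0128, and 0.0502 without WT replicate 3) and 7.83 to 8.83 in G7 (-0.92 ± 0.14, adjusted p = 0.0124). *Gm48914* (chr14:32317601-32318358) lay 3.66 kb from the *Ogdhl* start site, and repeats cover 75.3% of its summit window. It went from 15.1 to 16.9 in WT to 9.73 to 10.8 in B10 (-0.61 ± 0.11, adjusted p = 0.0159, and 0.0601 without B10 replicate 2) and 7.33 to 9.38 in G7 (-0.86 ± 0.11, adjusted p = 0.00729).

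**Figure D4:**
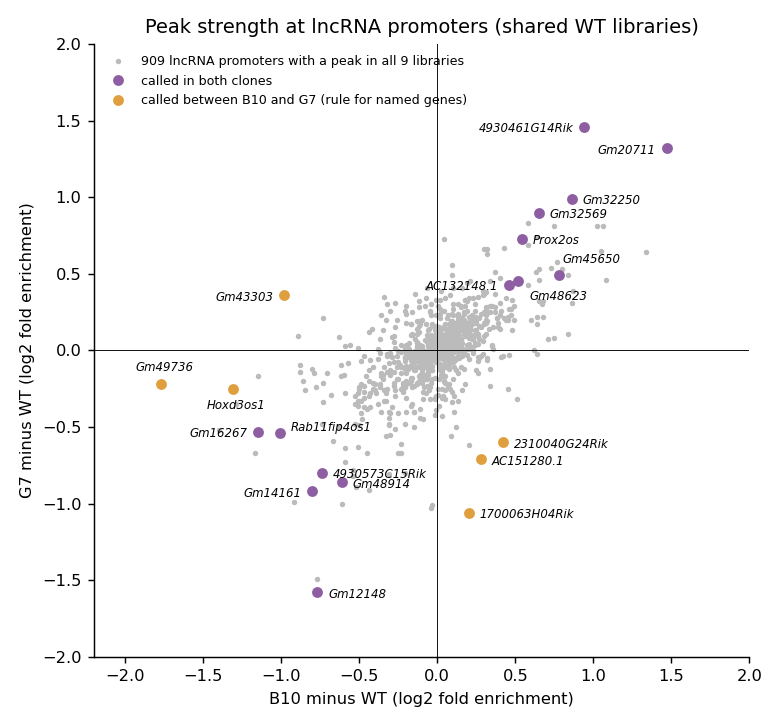
Log2 difference in fold enrichment from WT in B10 (horizontal axis) and G7 (vertical axis) at the 909 lncRNA promoters with a peak in all 9 libraries (grey). Purple points were called in the same direction in both clones (8 higher, 6 lower) and orange points are the 6 named for a difference between the clones, with the same WT libraries used on both axes.

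The clones differed from each other at 20 lncRNA promoters. B10 was higher than G7 at 5 (0.55%, against 0.771% of all regions) and lower at 15 (1.65%, against 1.01%). With the replicate block these counts were 17 (1.87%, against 2.14%) and 31 (3.41%, against 2.57%). *Hoxd3os1* (chr2:74715794-74716493), antisense within the *Hoxd* cluster of body-axis regulators, lay over its own start site and 3.87 kb from that of *Hoxd4*. Its fold enrichments were 20.7, 21.8 and 19.9 in WT, 8.41, 8.61 and 7.78 in B10 and 17.3, 15.5 and 16.2 in G7. The 3 lines did not overlap. B10 differed from WT by -1.31 ± 0.076 (adjusted p = 0.00042), G7 from WT by -0.25 ± 0.076 (adjusted p = 0.131), and B10 from G7 by -1.06 (adjusted p = 0.00136).

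*Gm49736* (chr16:31412115-31412968), 9.31 kb from *Bdh1*, an enzyme of ketone body metabolism, had values of 15.7, 16.7 and 13.9 in WT, 4.67, 5.84 and 3.24 in B10 and 13.4, 11.7 and 12.2 in G7. B10 lay far below both other lines, by -1.77 ± 0.18 against WT (adjusted p = 0.0021) and -1.56 against G7 (adjusted p = 0.00678). *Gm43303* (chr5:45252905-45253489), 976 bp from its start site, had values of 11.8, 11.6 and 11.5 in WT, 5.92, 7.38 and 4.54 in B10 and 12.8, 16.4 and 13.1 in G7. B10 was lower than WT (-0.98 ± 0.17, adjusted p = 0.013) and than G7 (-1.34, adjusted p = 0.00867), and G7 exceeded WT by 0.36 ± 0.17 (adjusted p = 0.319). All 3 differences between the clones held in every fit that left out 1 library.

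Of the 5 promoters higher in B10 than in G7, 3 are described, by the size of the difference. *1700063H04Rik* (chr6:122391664-122392492), 51.1 kb from the Polycomb gene *Phc1*, had values of 12.8, 11.3 and 15.4 in WT, 16.6, 14.7 and 13.3 in B10 and 6.97, 4.82 and 5.99 in G7. G7 fell by 1.06 ± 0.17 from WT (adjusted p = 0.0149, and up to 0.0546 without WT replicate 3 or G7 replicate 3), and B10 exceeded G7 by 1.26 (adjusted p = 0.0104). *2310040G24Rik* (chr6:86487161-86488204) had values of 12, 11.3 and 10 in WT, 14.2, 15.3 and 14.4 in B10 and 7.99, 6.19 and 6.54 in G7, with no overlap between the lines. B10 exceeded G7 by 1.01 (adjusted p = 0.00506). G7 differed from WT by -0.60 ± 0.11 (adjusted p = 0.0259, lost without WT replicate 2 or G7 replicate 2 or 3, up to 0.0954). In a limma fit of G7 and WT alone this call was lost too (adjusted p = 0.0779). B10 differed from WT by 0.42 ± 0.11 (adjusted p = 0.0569, and 0.0235 with the replicate block, in a range of 0.0235 to 0.177 over 15 alternatives). *AC151280.1* (chr17:68187425-68188221) had values of 9.78 to 12 in WT, 11.5 to 13.4 in B10 and 4.74 to 7.47 in G7. B10 exceeded G7 by 0.99 (adjusted p = 0.0251, lost without any 1 of the B10 replicates or G7 replicate 2 or 3, up to 0.0868). Against WT, G7 differed by -0.71 ± 0.17 (adjusted p = 0.0604, and 0.0162 with the replicate block, in a range of 0.0162 to 0.14 over 15 alternatives).

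**Figure D5:**
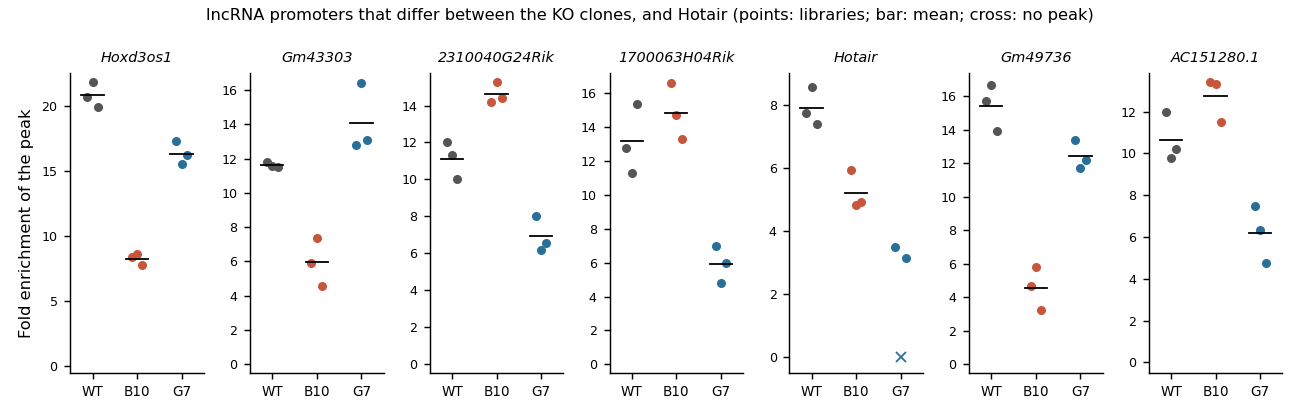
Fold enrichment of the peak (vertical axis, from 0) in each library at the 6 lncRNA promoters named for a difference between the clones and at *Hotair*, with bars for means and a cross where no peak was called. At *Hoxd3os1*, *Gm43303* and *Gm49736* B10 is lowest, and at *2310040G24Rik*, *1700063H04Rik* and *AC151280.1* G7 is lowest.

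Well-known lncRNAs were followed through 7 lists by role, 132 symbols in all. Of these, 30 genes made a lncRNA promoter, 11 had regions only near a protein-coding start site, 22 had no region within 1 kb, 29 were of another gene type and 40 were not found by symbol on chromosomes 1 to 19. The 30 genes had 47 regions. In both clones 2 of these were gained and 0 lost, where 2.93% of all consensus regions were gained and 4.37% lost. A peak in all 9 libraries was present at 36 of them and at 48.8% of all regions. By limma 1 was higher and 1 lower in B10, beside 3.47% and 3.08% of all regions tested. In G7 0 were higher and 0 lower, beside 1.77% and 1.38%. Counts this small do not tell the listed lncRNAs apart from all regions. At an unadjusted p under 0.05, 6 differed in B10 (16.7%, against 22% of all regions tested) and 2 in G7 (5.56%, against 16.9%). The median log2 difference of the 36 was 0.0119 in B10 and 0.0281 in G7, beside 0.0312 and 0.025 over all regions tested. At 30 of the 36 the difference from WT was under 0.25 on the log2 scale in both clones.

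Among lncRNAs of nuclear bodies, *Malat1*, a component of nuclear speckles, ranked 89.9, 85.2 and 83.2 in WT, 86.5, 83.5 and 82.9 in B10 and 86.6, 84.7 and 84.3 in G7, with overlap. *Neat1*, the scaffold of paraspeckles, had a start-site region (chr19:5844919-5845918) that ranked 57, 50.6 and 54.3 in WT, 74.4, 75.2 and 70 in B10 and 66.1, 66.7 and 66.8 in G7. The lines did not overlap in rank. In fold enrichment it ran from 1.92 to 2.02 in WT, 2.25 to 2.44 in B10 and 2 to 2.19 in G7, a log2 difference of 0.27 ± 0.074 in B10 (adjusted p = 0.0629, and 0.0378 with the replicate block) and 0.21 ± 0.074 in G7 (adjusted p = 0.191). Over 15 alternatives the adjusted p ran from 0.00218 to 0.185 in B10 and from 0.014 to 0.43 in G7, lowest when ranks were tested. *Tug1* had regions only near a protein-coding start site.

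Of imprinted lncRNAs, *Kcnq1ot1*, the paternally expressed antisense RNA that silences genes around *Kcnq1*, ranked 93.9, 94.5 and 91.5 in WT, 94, 94.8 and 93 in B10 and 99.8, 99.7 and 99.7 in G7. G7 stood above the other lines by rank, while its fold enrichment overlapped theirs (15 to 16.6, against 15.3 to 16.8 in WT and 16.4 to 18.8 in B10). The log2 difference was 0.067 ± 0.076 in G7 (adjusted p = 0.734, range 0.023 to 0.932 over 15 alternatives, under 0.05 only for ranks). *Airn*, the antisense RNA that silences *Igf2r*, had a start-site region (chr17:12740980-12741821) at ranks of 75.6 to 79.6 in WT, 78.2 to 82.4 in B10 and 78.2 to 81.9 in G7. A second *Airn* region (chr17:12742160-12742703), 762 bp from a start site, held weak peaks in 2 WT and 3 G7 libraries, at ranks of 4.23 to 14. B10 had 0 there, so it counts as lost in B10 alone. *H19*, *Meg3* and *Mirg* had no consensus region within 1 kb of a start site.

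Of 25 microRNA host symbols, 7 genes made a lncRNA promoter, with 8 regions, and 4 had no consensus region within 1 kb. *Mir17hg* ranked 88.6 to 90.4 in WT, 85.9 to 88.6 in B10 and 84.6 to 87.9 in G7. *Dnm3os*, antisense within *Dnm3* and needed for normal skeletal growth, ranked 92 to 97.3 in WT, 94.4 to 94.9 in B10 and 85.8 to 92.5 in G7. *Carmn*, known from smooth muscle, ranked 88.3 to 93.5, 91.8 to 94 and 90.2 to 93.9, and *Mir155hg* 63.4 to 72.7, 64.6 to 71.6 and 65.2 to 67.9. Of the 6 regions of the list with a peak in all 9 libraries, 0 passed the limma test in either clone. At an unadjusted p under 0.05, 1 did in B10 and 0 in G7, against 22% and 16.9% of all regions tested. With 6 regions this does not set the list apart from all regions. *Mirt1* had no peak in WT replicate 1, and *Mir9-3hg* none in B10 replicates 1 and 3.

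Of 20 symbols listed under small nucleolar RNA hosts, 5 genes made a lncRNA promoter, with 7 regions. Among the 5 are the antisense gene *Snhg7os*, while *Snhg7* itself was not found by symbol, and *Gm26917*, so the counts do not cover hosts alone. *Snhg6* ranked 88.8 to 93.8, *Snhg20* 83 to 89.8 and the start-site region of *Snhg12* 80.3 to 87 over the 9 libraries. Of 6 regions with a peak in all 9, 0 passed the limma test in either clone. At an unadjusted p under 0.05 there were also 0, against 22% of all regions tested in B10 and 16.9% in G7. With 6 regions this does not set the list apart from all regions. The remaining region, at *Snhg7os* (chr2:26643990-26644244), had no peak in WT, ranks of 36.7 and 46.1 in B10 replicates 2 and 3 and one of 27.8 in G7 replicate 2, and so was gained in B10 alone. A region at *Gm26917* (chr17:39843004-39848928), which also holds *AY036118* and *Gm42418*, genes known for ribosomal RNA sequence, ranked 99.8 to 100, with fold enrichments of only 2.84 to 3.68. Reads there can belong to the ribosomal RNA repeats, so its value is uncertain.

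Of the *Hox* lncRNAs, *Hotair*, read from the *Hoxc* cluster and known to bind Polycomb proteins, had a region over its start site (chr15:102946957-102948246) that ranked 39.8, 40.3 and 34.9 in WT and 35.3, 21.9 and 21.5 in B10. In G7 it ranked 3.63 and 0.879 in replicates 1 and 3, and replicate 2 held no peak. Fold enrichment was 7.39 to 8.57 in WT, 4.81 to 5.93 in B10 and 3.48 and 3.14 in G7, so the lines did not overlap. With a peak missing it was not part of the limma fit, and it was no lost region, since 2 G7 libraries held a peak. *Hoxd3os1* is given above. *Hottip*, *Hoxb3os* and *Hoxb5os* had no region within 1 kb.

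Of lncRNAs of the p53 response and cell cycle, *Trp53cor1* (lincRNA-p21), 11.4 kb from *Cdkn1a*, ranked 95.8 to 97 in WT, 98.3 to 98.7 in B10 and 96.7 to 97.6 in G7. *Pvt1* had 5 regions. The main start site (chr15:62037682-62038836) ranked 87 to 88.3 in WT, 85 to 85.8 in B10 and 84.6 to 87.1 in G7, and the gained region described above was the only one of the 5 gained in both clones. Another *Pvt1* region (chr15:62223350-62224216) counts as lost in G7 alone, on weak peaks at ranks of 0.864 to 13 in 2 WT and 2 B10 libraries. *Lncpint*, induced by p53, had 5 regions as well, 4 with a peak in all 9 libraries. The fifth (chr6:31167126-31167918) counts as gained in both clones on weak peaks, at ranks 0.51 and 0.615 in B10 and 6.88 and 7.89 in G7. At another (chr6:31088127-31089554) the log2 difference in B10 was -0.32 ± 0.10 (adjusted p = 0.0995, and 0.0491 with the replicate block, in a range of 0.0306 to 0.48 over 15 alternatives).

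Of lncRNAs of development, *2610035D17Rik*, in the gene desert by *Sox9*, the master regulator of cartilage, had 3 regions. The start-site region (chr11:113200950-113202189) ranked 98.7 to 99.7 in all libraries. A second (chr11:113173971-113174669), 894 bp from a start site, had fold enrichments of 6.02, 4.71 and 3.03 in WT, 12.9, 11.6 and 9.06 in B10 and 8.66, 6.15 and 4.95 in G7. B10 stood above WT in every library, and replicate 1 was highest in every line. The difference was 1.34 ± 0.28 in B10 (adjusted p = 0.0267, lost without WT replicate 2 or 3 or B10 replicate 1 or 2, up to 0.0862) and 0.64 ± 0.28 in G7 (adjusted p = 0.298, and 0.0154 with the replicate block, in a range of 0.0154 to 0.642 over 14 alternatives). The third (chr11:113172380-113172928) differed by -0.73 ± 0.19 in B10 (adjusted p = 0.0582, and 0.0116 with the block, in a range of 0.0116 to 0.205 over 15 alternatives), so neighbouring regions of 1 gene did not move one way. *Dlx6os1*, which acts on neighbouring *Dlx* genes, ranked 91.4 to 97.8 over the 9 libraries, *Lockd*, downstream of *Cdkn1b*, 91.9 to 98.3, and the start-site region of *Bvht*, known from the cardiac lineage, 78.8 to 88.6. *Platr3* had a region (chr2:135648038-135648461), 446 bp from a start site, that was gained in B10 alone. It held a peak in 0 WT, 3 B10 and 1 G7 libraries, at ranks of 10.2 to 27.1.

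The 10 strongest lncRNA promoters by mean rank were *Gm5165*, *Gm26917*, *Gm13710*, *Gm32618*, *Gm6712*, *Gm20732*, *Gm10010*, *Gm16046*, *2610035D17Rik* and *Gm11527*. By limma 0 of them passed in a clone, where 3.47% of all regions tested were higher and 3.08% lower in B10, and 1.77% and 1.38% in G7. At an unadjusted p under 0.05, 1 differed in B10 and 0 in G7, against 22% and 16.9% of all regions tested. With 10 regions, the adjusted counts do not tell them apart from all regions. *Gm5165* (chr17:17234375-17235380) ranked 99.9 to 100 and *Gm32618* (chr15:32778354-32779843) 99.8 to 99.9. At *Gm13710* (chr2:84506219-84506771) repeats cover 98.3% of the summit window, so its reads may come from several places.

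At 133 lncRNA genes 2 or more regions were counted, 286 regions in all, so these are not independent. At 42 of the genes every region had a peak in all 9 libraries. At 3 genes a gained region stood beside one with a peak in all 9, and at 4 genes a lost one did. In 2 genes 2 or more regions were lost, and in 0 genes 2 or more were gained.

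The AP-1 letters were found at 23 of 80 lost lncRNA promoters (28.7%), 4 of 40 gained ones (10%) and 169 of 909 with a peak in all 9 libraries (18.6%). Over all consensus regions the shares were 28.5%, 11.3% and 18.5%, beside which the shares at lncRNA promoters lay within 1.5 percentage points. CCTTTGT or ACAAAGG, letters that SOX factors are known to bind, stood at 4 lost (5%), 3 gained (7.5%) and 45 stable ones (4.95%), against 4.31%, 8.14% and 4.84% of all. CpG-rich windows made up 3 of 80 lost (3.75%), 2 of 40 gained (5%) and 117 of 909 stable ones (12.9%), against 2.65%, 3.01% and 19.5%. A match of letters is not a bound site.

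Gained and lost lncRNA promoters were spread over many chromosomes. Gained ones made up 7 of 112 on chromosome 13 (6.25%, against 4.44% of all regions there), 6 of 99 on chromosome 6 (6.06%, against 4.44%) and 5 of 78 on chromosome 8 (6.41%, against 4.93%), and there were 0 on 5 chromosomes. Lost ones were on all 19, with 11 of 108 on chromosome 2 (10.2%, against 5.86%). Other consensus regions within 10 kb of gained lncRNA promoters were gained in 4 of 50 cases (8%) and lost in 2 (4%). Within 10 kb of lost ones 1 of 69 was gained (1.45%) and 8 lost (11.6%). Over all regions 2.93% were gained and 4.37% lost, and the small numbers of neighbours were not tested. The protein-coding genes nearest to the lost lncRNA promoters had 68 promoter regions, of which 0 were lost, 1 was gained and 56 had a peak in all 9 libraries (82.4%). Those nearest to gained ones had 37, of which 3 were gained and 28 had a peak in all 9 (75.7%). Those nearest to lncRNA promoters with a peak in all 9 libraries had 893, of which 17 were gained, 18 lost and 700 had a peak in all 9 (78.4%).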

How the data were processed

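ATAC-seq peak lists of 9 libraries (WT, B10 and G7, 3 each) were analysed. The authors aligned reads to mm10 with Rsubread, called peaks in each library with MACS2 (version not given in the sources used here) in paired-end mode and deposited, for each peak, its fold enrichment over background (a ratio) and its −log10 p and q-values. The lowest deposited −log10 q was 1.30, a q-value of 0.05. Read counts were not analysed here, so the count test of the study could not be used.

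Start sites were the 5′ ends of all transcripts in GENCODE M21. Members, gene lists, markers and the rule for named genes were chosen with earlier results of these data known. Named were the listed lncRNAs, the 10 members of highest mean rank, 8 gained and 8 lost in both clones (peaks in most libraries, then the highest lowest rank), up to 8 in each direction called in both clones and 3 in each direction between clones, by log2 difference. Fold enrichments were compared with limma 3.58.1 in R 4.3.3 (log2, no pseudocount, 3 lines in 1 fit, Benjamini-Hochberg adjustment over 46449 regions). Shares were compared by exact permutation tests (Python with scipy 1.17.1). Scripts were tested on simulated data.

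Deviations from the line means correlated across regions between libraries of the same replicate number in different lines (r from 0.241 to 0.59 in each pair). Between different numbers r was 0.176 to 0.246 for replicates 2 and 3, which overlaps that range, and -0.48 to -0.306 where 1 library was replicate 1. The numbers were taken as pairs, and a replicate block was fitted as an alternative. Other alternatives changed the window, start sites, peak threshold, number of peaks, overlap, scale, centring, low-value filter and libraries. Sequences and letters were read from mm10 with pysam 0.24.0.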

Additional observations from a re-analysis of the deposited data

Results flagged for a closer look

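A difference between the clones under the same contrast with WT was found by limma at 20 lncRNA promoters (Benjamini-Hochberg adjusted p under 0.05 for B10 against G7, 3 libraries each), 5 higher and 15 lower in B10. *Hoxd3os1*, *Gm49736* and *Gm43303* had lower fold enrichments in every B10 library than in every G7 library, and *2310040G24Rik*, *1700063H04Rik* and *AC151280.1* higher ones. They were named for the size of that same difference, so the separation of the libraries adds no support. With the replicate block 17 were higher and 31 lower in B10. Each KO line is 1 clone, so a difference between guides and one between clones cannot be told apart.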

How the results depend on the processing

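Over the counts and shares of the report, 156 values under alternatives kept their direction and lay within the limits set for a change, 32 moved and 6 reversed. Some of the 156 could not change. A share difference between 1 clone and WT does not use the libraries of the other clone, and the replicate block leaves mean differences of shares as they are. The tally is therefore no measure of how firm the results are. The number of lncRNA promoters gained in both clones was 25 with a 500 bp window, which left 1236 lncRNA promoters, against 2.93% of all regions. It was 70 with the replicate block (against 5.08% of all regions) and 25 to 72 without 1 library (against 1.91% to 5.7%). The number lost in both clones was 45 to 88 without 1 library, against 2.13% to 5.09% of all regions. Shares over all regions thus changed with the setting too, and the counts alone do not tell lncRNA promoters apart from other regions. The share of lncRNA promoters with a peak in B10 minus WT turned to 0.155 points without B10 replicate 1 (range without 1 library -1.74 to 0.155). Its gap to protein-coding promoters in B10 minus WT turned to 1.03 points with 1 start site per gene, 0.405 with replicates 2 and 3 alone, 0.00259 without WT replicate 2, 0.331 without B10 replicate 1 and 0.154 without B10 replicate 3 (range without 1 library -0.708 to 0.331). The cause of these changes was not tested.

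For the limma counts, shares over all regions are given only for the main fit and the replicate block. The other counts do not tell lncRNA promoters apart from other regions. The number higher in B10 was 69 on percentile ranks, 16 with a 500 bp window, 61 with the replicate block and 9 to 41 without 1 library. The number lower in B10 was 53 on ranks, 72 with the block and 14 to 33 without 1 library. In G7 25 were higher on ranks, 4 in a fit of the clone and WT alone, 23 with the block and 4 to 17 without 1 library, and 46 were lower on ranks, 35 with the block and 9 to 18 without 1 library. With the replicate block the clones also differed at *Gm12148* (limma adjusted p = 0.0276) and at the second *2610035D17Rik* region (0.0153), and it changed no other call of a named region than these and those given in the report.

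Depth is unknown, and a missing peak means none passed the threshold of the peak caller. The fold enrichment compares a peak with background in its own library, and regions lacking a peak in any library were not in the limma fit. With 3 libraries a line, the permutation tests of shares between lines cannot pass 0.05. Each clone is 1 cell's descendants, and open chromatin is no measure of transcription.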
